A study of Mus musculus with 17 samples.

Results

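The expression of 10 genes of the Wnt pathway was followed in 17 mouse hearts, 8 sham-operated left ventricles (LV) and 9 infarct zones (IZ). The genes were chosen by name, with earlier results of these data known. They are 1 ligand (Wnt5a), 3 Frizzled receptors (Fzd1, Fzd2 and Fzd4), 5 secreted inhibitors (Sfrp1, Sfrp2, Frzb, Wif1 and Dkk3) and 1 target gene of the pathway (Axin2), out of 31647 features in the count table. All animals were wildtype, and per the study's methods young adult males of the C57BL/6J strain. In the IZ group (treatment MI in the labels) the left anterior descending coronary artery was permanently ligated, without reperfusion, and the infarct zone was dissected 5 days later. The sham group had the same surgery without ligation and gave LV tissue at the same time. RNA was read by massive analysis of cDNA ends (MACE), a 3′ end method with molecular identifiers in which a transcript gives at most 1 counted tag, so that levels need no division by transcript length. Levels are given as CPM (counts relative to the library size after TMM scaling, the trimmed mean of M values), and log2 values use a prior count of 1. Since every library is whole tissue, fewer cells of a type and less RNA per cell cannot be told apart.

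Wnt proteins are secreted lipid-modified signals that bind Frizzled receptors together with co-receptors. In the canonical branch this stabilises β-catenin, which activates target genes with TCF and LEF factors, and in other branches it acts through Ror, Ryk and Ptk7. Some secreted inhibitors bind the Wnt proteins themselves, as the secreted Frizzled-related proteins (Sfrp1, Sfrp2, Frzb) and Wif1 do. Others block the co-receptors, as some but not all Dickkopf proteins do. In the healing heart Wnt signalling is known for its links to fibroblasts, vessels and scar formation.

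In the IZ the secreted Frizzled-related proteins Sfrp1, Sfrp2 and Frzb were 8.01 to 11.5 times as abundant as in sham LV by mean CPM, and the receptor Fzd2 was 10.3 times as abundant. Fzd1 and Dkk3 rose less, by 2.60 and 2.37 times. Wif1 was detected in every sham library and almost lost from the IZ, Fzd4 fell slightly, and Wnt5a did not pass the test, although both turned to higher in the IZ when total counts alone set the library sizes. Of the 10 genes, 8 had enough counts to be tested, of which 6 were called higher and 1 lower at an adjusted p below 0.05 (edgeR quasi-likelihood test). Of all 12301 tested genes 69.5% were called, 36.3% higher and 33.1% lower, and with total counts alone 74.6% were called higher and 12.5% lower. Without the filter on low counts the 10 genes were tested, with 6 called higher and 3 lower, where 38.5% of 27668 genes were called, 20.9% higher and 17.6% lower. Of the 12301 genes 425, or 3.46%, were called with a log2 fold change of at least 3, and Sfrp1, Sfrp2, Frzb and Fzd2 were 4 of them. Since the genes were chosen with earlier results of these data known, that share is no test of them.

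**Figure D1:**
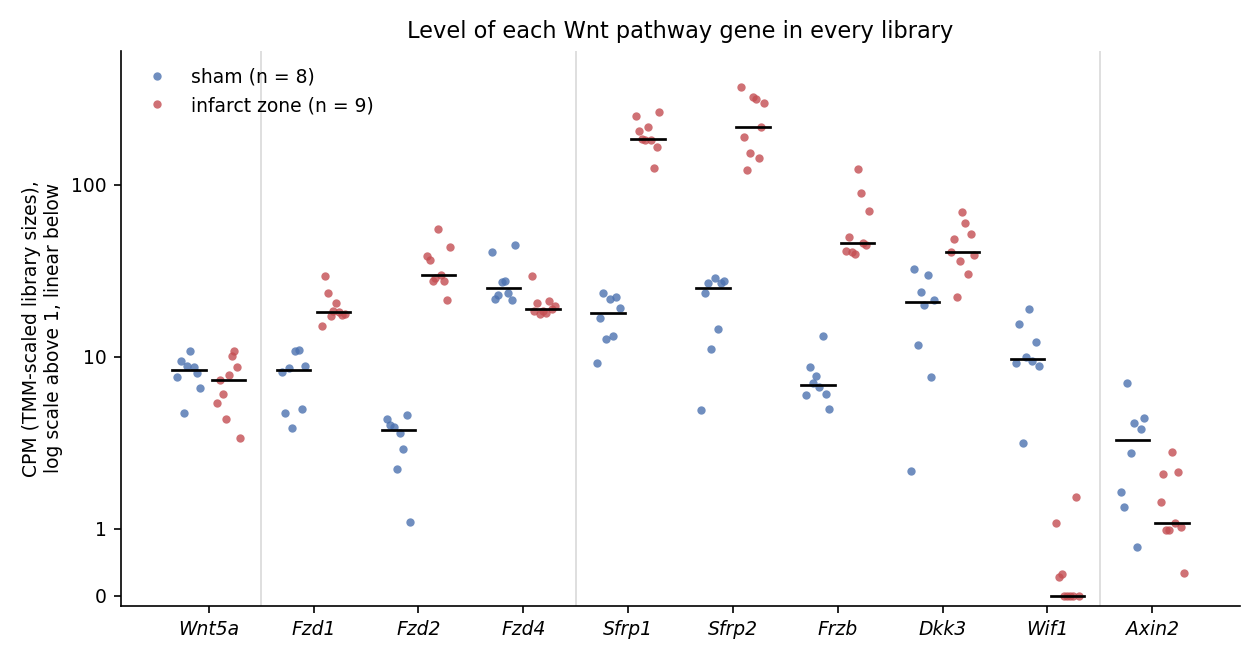
Level in CPM (log axis above 1, linear below) of the 10 genes in each of the 8 sham (blue) and 9 IZ (red) libraries, with points in the order of the replicate numbers and black bars at the medians. Sfrp1, Sfrp2, Frzb, Fzd1 and Fzd2 do not overlap between the groups and lie higher in the IZ, Wif1 does not overlap and lies lower, and the other 4 genes overlap.

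The libraries held 1237675 to 4738307 counts, and the sham libraries 1820809 to 4257919. Cardiomyocyte markers were lower in the IZ (7 of 7 called lower, summed level 48411 to 63951 CPM in sham and 1651 to 19751 CPM in the IZ). Markers of activated fibroblasts were higher (5 of 5, from 188 to 414 CPM in sham to 2202 to 4190 CPM in the IZ), as were those of fibroblasts (6 of 7, from 1291 to 2381 CPM to 8540 to 13551 CPM) and macrophages (6 of 6, from 155 to 209 CPM to 893 to 1715 CPM). Col1a1 and Col3a1 made up most of the fibroblast sum in the IZ, with means of 5588 and 3910 CPM against 349 and 365 CPM in sham. By mean CPM Lum, Tcf21, Dpt and Pdgfra rose less, by 3.36, 2.98, 2.49 and 1.91 times, and Dcn was not called (1.02 times). Markers of neutrophils were higher (3 of 3 tested), and those of mural cells of the vessel wall were lower (4 of 6, with 1 higher, from 500.2 to 711 CPM in sham to 236 to 463 CPM in the IZ). The part of these shifts in the results was not tested. IZ replicate 1 stood apart, with 19.5% of its counts from mitochondrially encoded features against 4.22 to 6.78% in the other IZ libraries and 22.9 to 32.4% in sham, and with the 19751 CPM of cardiomyocyte markers. The last 500 bases of the genes' transcripts (GENCODE M21) matched no other gene over at least 100 bases at 95% identity. The antisense partners Gm26771 of Sfrp2 and Gm2670 of Wnt5a had at most 9 and 2 counts in any library.

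Promoter sequences (RefSeq, build GRCm38.p6, the build of the files) were at hand for 6 of the 10 genes, namely Sfrp2, Frzb, Fzd1, Fzd4, Wif1 and Axin2. The promoters of 4 are shown, since they stand for the different outcomes, which are a large rise (Sfrp2), a smaller rise (Fzd1), a near loss (Wif1) and the pathway's own target gene at low counts (Axin2). Each is read 5′ to 3′ on the gene's strand, ends just before the RefSeq or the GENCODE M21 start, whichever comes first, and has in capitals the letters of a TATA box (TATAAA), a GC box (GGGCGG) or a CCAAT box (CCAAT) on either strand.
Sfrp2 promoter, chr3:83766071-83766320, plus strand: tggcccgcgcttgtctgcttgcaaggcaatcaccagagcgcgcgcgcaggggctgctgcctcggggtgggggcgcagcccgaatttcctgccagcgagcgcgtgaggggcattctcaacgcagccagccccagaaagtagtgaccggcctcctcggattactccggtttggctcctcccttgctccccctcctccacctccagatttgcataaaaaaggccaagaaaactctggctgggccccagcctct
Fzd1 promoter, chr5:4758217-4758466, minus strand: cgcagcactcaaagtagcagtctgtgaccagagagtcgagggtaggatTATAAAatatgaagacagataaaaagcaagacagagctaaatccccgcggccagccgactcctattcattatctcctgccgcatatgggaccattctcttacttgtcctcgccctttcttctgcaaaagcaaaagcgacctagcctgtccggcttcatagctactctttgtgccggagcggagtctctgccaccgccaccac
Wif1 promoter, chr10:121033754-121033959, plus strand: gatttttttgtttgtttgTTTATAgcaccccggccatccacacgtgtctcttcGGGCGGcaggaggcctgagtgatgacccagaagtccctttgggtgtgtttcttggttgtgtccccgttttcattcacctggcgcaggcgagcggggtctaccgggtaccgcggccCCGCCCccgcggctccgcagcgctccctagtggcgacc
Axin2 promoter, chr11:108920099-108920348, plus strand: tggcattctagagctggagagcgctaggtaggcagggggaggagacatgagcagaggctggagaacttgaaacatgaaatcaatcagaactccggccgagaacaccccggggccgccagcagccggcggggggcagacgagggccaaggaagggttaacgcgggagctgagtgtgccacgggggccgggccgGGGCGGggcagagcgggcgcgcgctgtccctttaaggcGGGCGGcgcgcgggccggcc
In the 250 bases before the RefSeq start, TATAAA was found in Fzd1 and Wif1 (12.4% of all 32851 such windows hold it on either strand), GGGCGG in Frzb, Fzd4, Wif1 and Axin2 (32.7% of windows), and CCAAT in Fzd4 (33.9% of windows). The letters CTTTGAT or CTTTGAA, which TCF and LEF factors bind, were in none of these 6 windows, and 7.48% of all windows hold them. Of these 250 bases 229 lie inside the GENCODE gene in Frzb, 44 in Wif1 and 11 in Fzd4, and the 21 bases of Frzb outside it hold none of the letters searched. The GC content was 51.2% in Fzd1 and 62.8 to 72.8% in the other 5 windows, where the median over all windows was 52.4%.

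Wnt5a (chr14:28504750-28527448, plus strand) encodes a ligand that acts mostly through the non-canonical branches. Its level was 4.71, 8.37 and 10.8 CPM in the lowest, median and highest sham library and 3.35, 7.31 and 10.7 CPM in the IZ. The ranges overlapped, and 2 of the 9 IZ libraries, replicates 4 and 9, lay below all sham libraries. The log2 fold change was -0.24 (SE 0.23, adjusted p = 0.361, edgeR), and an exact two-sided permutation of the group labels gave p = 0.316. With total counts alone as the library sizes the direction turned and Wnt5a was called higher (0.85, adjusted p = 0.00282, edgeR). Wnt5a took 32.6 ± 6.92% of the counts of the 18 Wnt genes in the table in sham (SD, n = 8) and 29.3 ± 7.45% in the IZ (SD, n = 9), the largest mean share of any ligand in both groups. The Wnt ligands together reached 25.4 ± 7.49 CPM in sham and 24.3 ± 6.73 CPM in the IZ.

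The 3 receptors moved apart. Fzd2 (chr11:102604396-102608058, plus strand) had 1.10, 3.76 and 4.58 CPM in the lowest, median and highest sham library and 21.5, 29.9 and 55.5 CPM in the IZ, with all 9 IZ libraries above all sham libraries, as held upwards for 16.6% of the tested genes. The log2 fold change was 3.32 (SE 0.24, adjusted p = 3.33e-11, edgeR). Its sham counts were low (2 to 12 a library), so that their spread (CV 35.6%) was no wider than counting error alone would give (42.0%). At these sham counts Fzd2 passed the filter only through the IZ. Without the filter its log2 fold change was 3.38 (adjusted p = 4.80e-16, edgeR). Fzd1 (chr5:4753839-4758035, minus strand) went from 3.87, 8.38 and 10.9 CPM in sham to 15.1, 18.3 and 29.4 CPM in the IZ, again without overlap. It rose by 1.41 on the log2 scale (SE 0.20, adjusted p = 1.63e-06, edgeR).

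Fzd4 (chr7:89404355-89413134, plus strand), the receptor of norrin and of Wnt ligands in vessels, had 21.4, 25.2 and 44.6 CPM in sham and 17.6, 18.9 and 29.4 CPM in the IZ. In 8 of the 9 IZ libraries the level lay below all sham libraries, and the exception was IZ replicate 1, the library that stood apart. The log2 fold change was -0.51 (SE 0.16, adjusted p = 0.00769, edgeR). With total counts alone as the library sizes, the direction turned (0.54, adjusted p = 0.00379, edgeR), in a scaling that moved the median of all tested genes from 0.05 to 1.13. Against all tested genes Fzd4 lay low under TMM scaling, with 29.8% of them having a lower log2 fold change.

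Ratios within a library do not depend on the scaling. The log2 ratio of Fzd2 to Fzd4 (1 added to each count) was -2.92 ± 0.86 in sham (SD, n = 8) and 0.71 ± 0.44 in the IZ (SD, n = 9), a difference of 3.63 with all 9 IZ libraries above all sham libraries (exact permutation p = 4.11e-05, the smallest that 8 against 9 libraries allow). Fzd1 to Fzd4 went from -1.87 ± 0.57 to -0.04 ± 0.43, and Fzd1 to Fzd2 from 1.06 ± 0.80 to -0.76 ± 0.50, likewise without overlap. In sham Fzd4 was thus the most abundant of these receptors in each library, and in the IZ Fzd2 was. Of the 13 ratios tested between receptors and between inhibitors, 10 passed an adjusted p of 0.05. The share of other gene pairs that would pass was not computed, so that number is no result about these genes.

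**Figure D2:**
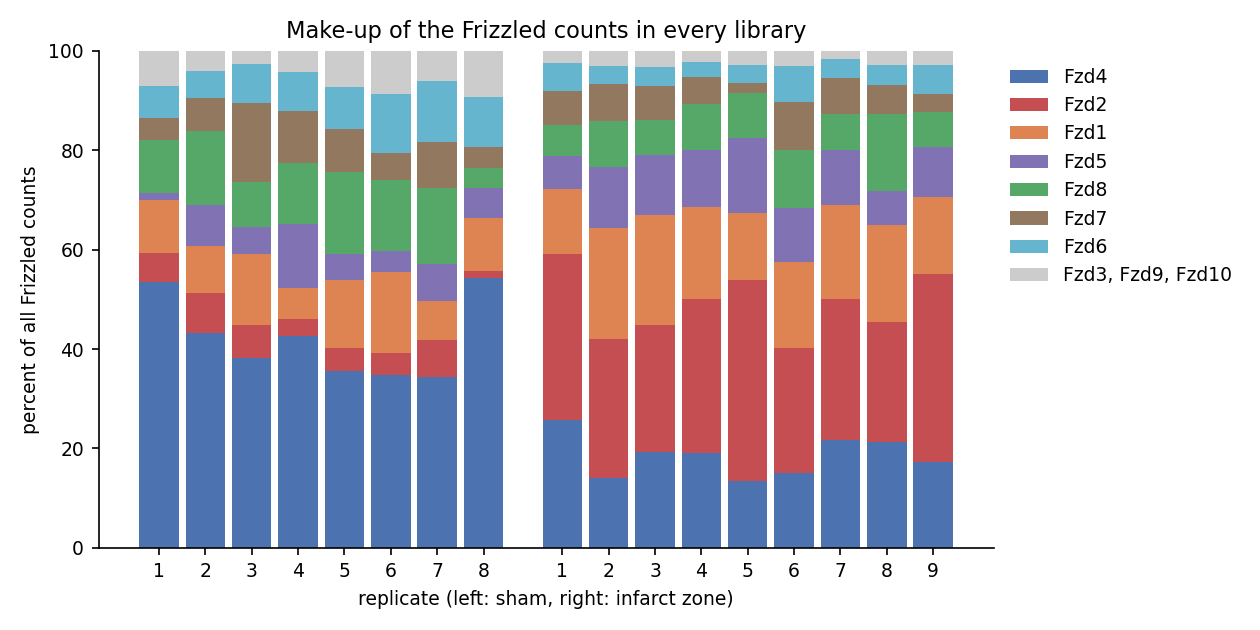
Share of each Frizzled gene in all Frizzled counts of a library, in percent, one bar per library (left 8 sham, right 9 IZ). Fzd4 (blue, at the base) takes 34.4 to 54.4% in sham and 13.5 to 25.6% in the IZ, and Fzd2 (red) takes 1.34 to 8.11% in sham and 24.1 to 40.4% in the IZ.

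As a share of the counts of all 10 Frizzled genes, Fzd4 went from 42.1 ± 8.07% in sham to 18.5 ± 3.99% in the IZ (SD, n = 8 and 9). Fzd2 went from 5.19 ± 2.21% to 30.4 ± 5.76%, and Fzd1 from 11.2 ± 3.46% to 17.9 ± 3.33%. The summed level of the family was 49.7 to 82.0 CPM in sham and 89.0 to 137 CPM in the IZ without overlap. Each share rests on 74 to 163 Frizzled counts in a sham library and on 174 to 954 in an IZ library.

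Among the secreted inhibitors, Sfrp1 and Sfrp2 were the most abundant in the IZ. Sfrp1 (chr8:23411502-23449632, plus strand), which binds Wnt proteins through a Frizzled-like domain, had 9.22, 18.0 and 23.5 CPM in the lowest, median and highest sham library and 126, 185 and 264 CPM in the IZ. Sfrp2 (chr3:83766321-83774316, plus strand), a paralog of it, had 4.88, 25.1 and 28.7 CPM in sham and 121, 216 and 368 CPM in the IZ. In both genes all 9 IZ libraries lay far above all sham libraries. The log2 fold changes were 3.51 for Sfrp1 (SE 0.18, adjusted p = 4.80e-13, edgeR) and 3.52 for Sfrp2 (SE 0.30, adjusted p = 4.61e-10, edgeR).

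The log2 ratio of Sfrp1 to Sfrp2 was -0.12 ± 0.45 in sham and -0.19 ± 0.45 in the IZ (SD, n = 8 and 9), a difference of -0.07 that did not pass the test (exact permutation p = 0.750). Within the IZ the spread of Sfrp2 (CV 38.6%) was wider than that of Sfrp1 (CV 21.5%), and counting error alone would give 3.97% and 4.18%. The highest Sfrp2 levels were in IZ replicates 1, 5, 6 and 9 (299 to 368 CPM), and the lowest in replicates 3 and 7 (121 and 142 CPM).

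Frzb (chr2:80411970-80447625, minus strand), the third secreted Frizzled-related protein, had 4.95, 6.86 and 13.1 CPM in sham and 39.4, 45.7 and 123 CPM in the IZ. No IZ library overlapped with sham, and IZ replicates 5, 6 and 9 were the highest. Its log2 fold change was 3.01 (SE 0.27, adjusted p = 1.04e-09, edgeR). The ratios of Sfrp1 and of Sfrp2 to Frzb did not pass the test, with Sfrp1 to Frzb at 1.13 ± 0.68 in sham and 1.79 ± 0.58 in the IZ (exact permutation p = 0.0508, adjusted over the 13 ratios 0.0600).

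Dkk3 (chr7:112116017-112159057, minus strand), a divergent member of the Dickkopf family, went from 2.17, 20.7 and 32.3 CPM in sham to 22.4, 40.6 and 69.0 CPM in the IZ. The groups overlapped, with 7 of the 9 IZ libraries above all sham libraries. Sham replicate 1 had only 4 counts, while the other sham libraries had 15 to 48. The log2 fold change was 1.26 (SE 0.31, adjusted p = 8.48e-04, edgeR). In sham its spread was the widest of the inhibitors (CV 57.0%, where counting error would give 18.2%). Relative to Sfrp2 it lay lower in every IZ library than in any sham library, the log2 ratio of Sfrp2 to Dkk3 being 0.28 ± 1.03 in sham and 2.38 ± 0.41 in the IZ without overlap (exact permutation p = 4.11e-05).

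Wif1 (chr10:121033960-121100650, plus strand), a secreted protein that binds Wnt ligands through its WIF domain, moved against the other inhibitors. Sham libraries had 4 to 37 counts, or 3.14, 9.70 and 19.0 CPM in the lowest, median and highest. The IZ libraries had 3, 2, 2, 0, 0, 0, 0, 3 and 0 counts in the order of the replicate numbers, at most 1.53 CPM, and 3 counts, the number that a count of 0 allows, stand on average for 1.05 CPM there. All 9 IZ libraries lay below all sham libraries. Pooled over the libraries of a group, 160 counts in sham against 10 in the IZ give a rate 36.8 times as high in sham (95% exact interval 19.5 to 78.3, counting error only).

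Wif1 was left out by the filter on low counts, since too few libraries had enough counts. It passed the filter in the fit without sham replicate 3, which had 4 counts. Without that filter the log2 fold change was -4.89 (SE 0.46, adjusted p = 5.92e-12, edgeR), in the fit without a filter described above, in which 7.88% of genes had all IZ libraries below all sham libraries. The Wald test of DESeq2 gave -5.13 (adjusted p = 1.98e-19). As a share of the counts of the 5 inhibitors, Wif1 went from 15.4 ± 7.28% in sham to 0.07 ± 0.11% in the IZ (SD, n = 8 and 9), Sfrp1 from 23.8 ± 6.08% to 37.8 ± 6.96% and Sfrp2 from 26.4 ± 8.80% to 42.7 ± 6.03%. The 5 genes together rose from 31.4 to 96.8 CPM in sham to 344 to 732 CPM in the IZ.

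Axin2 (chr11:108920349-108950783, plus strand), a scaffold of the β-catenin destruction complex that canonical Wnt signals induce as a negative feedback, was close to the limit of detection. Its counts were 1 to 10 in sham and 1 to 15 in the IZ, which is 0.73, 3.29 and 7.06 CPM against 0.33, 1.08 and 2.81 CPM in the lowest, median and highest library. The groups overlapped, with only IZ replicate 9 below all sham libraries. It did not pass the filter on low counts. Without it the log2 fold change was -1.14 (SE 0.44, adjusted p = 0.0376, edgeR), and DESeq2 gave -1.23 (adjusted p = 0.0103), in a test that called 53.8% of 19150 genes and 25.9% as lower.

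That call for Axin2 was close to the threshold. In the 17 fits without a filter that left out 1 library the log2 fold change ran from -1.29 to -0.93, and the call was lost in 9 of them, those without sham replicate 3, 5, 7 or 8 or IZ replicate 3, 4, 6, 8 or 9 (adjusted p = 0.0505 to 0.111, edgeR). The smallest change was that without sham replicate 3. The call was lost with total counts alone (-0.14, adjusted p = 0.807, edgeR).

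**Figure D3:**
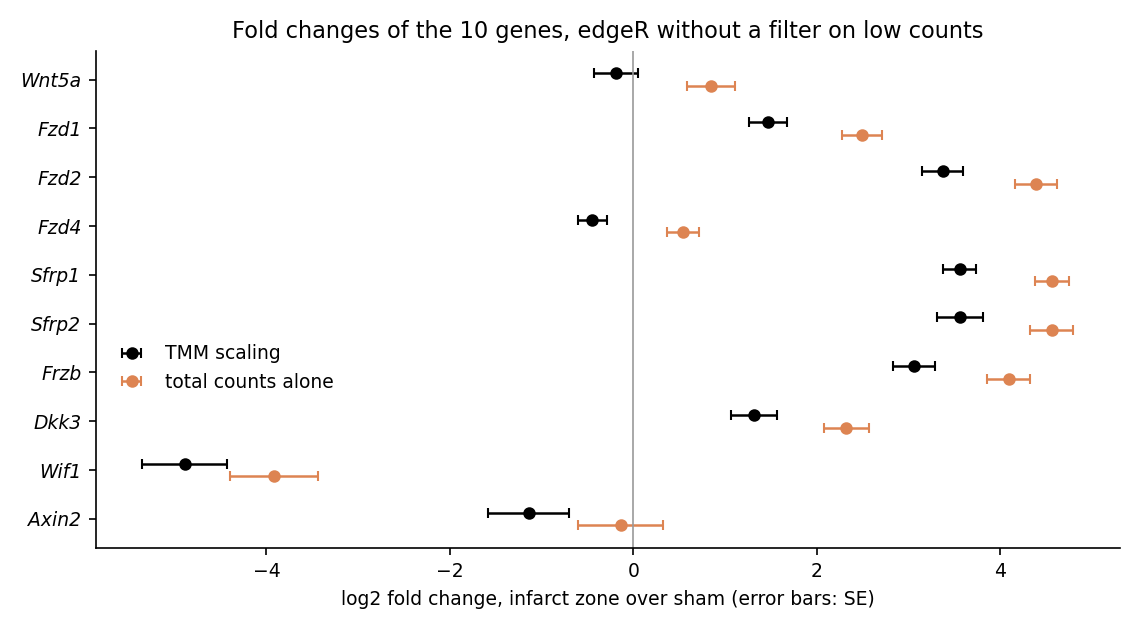
Log2 fold change of the 10 genes, IZ over sham (x axis, error bars SE), fitted by edgeR without a filter on low counts with TMM scaling (black) and with total counts alone (orange). Sfrp1, Sfrp2, Frzb, Fzd2, Fzd1 and Dkk3 lie above 0 and Wif1 below 0 in both, Wnt5a and Fzd4 change side, and Axin2 lies near 0 with total counts.

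The levels were then set against markers of 2 cell types in the same library, as log2 CPM of the gene minus the mean log2 CPM of the markers. These 20 values were tested by exact two-sided permutation and adjusted over the 20, and 16 passed 0.05. By the same test unadjusted, 91.3% of all 12301 tested genes passed relative to the fibroblast markers, 5.34% higher and 86% lower, and 73% relative to the endothelial markers, 54.5% higher and 18.5% lower, so that the number passed is no result about these genes. Relative to 7 fibroblast markers, Sfrp1 was higher in the IZ than in sham by 1.65, Sfrp2 by 1.72 and Fzd2 by 1.40, the first 2 without overlap. Frzb was higher by 1.01. The log2 fold changes of the 7 markers themselves differed widely, with Dcn at 0.04, Lum at 1.75 and Col3a1 at 3.42, and that of Col1a1 was the highest and above those of all 4 genes. Relative to the 5 markers of activated fibroblasts, a comparison added after seeing the data, none of these 4 genes was higher. Sfrp1 differed by 0.03 (exact permutation p = 0.902), Sfrp2 by 0.10 (exact permutation p = 0.796) and Fzd2 by -0.22 (exact permutation p = 0.465), and Frzb was lower by 0.61 (exact permutation p = 0.0336, adjusted over the 10 genes 0.0481). By that test 96% of all tested genes were lower and 0.488% higher.

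Fzd1 and Dkk3 were not higher relative to the fibroblast markers. Fzd1 was lower relative to them by 0.47 (exact permutation p = 0.0265, adjusted 0.0331), and Dkk3 differed by -0.38 (exact permutation p = 0.371), which is within the spread of the sham libraries (SD 1.14). Wnt5a, whose own level did not pass the test, was lower relative to the fibroblast markers by 2.10, and Fzd4 by 2.32, both without overlap.

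Relative to 6 endothelial markers, of which 2 were called lower and none higher, Fzd4 was at -1.55 ± 0.52 in sham and -1.48 ± 0.17 in the IZ (SD, n = 8 and 9). The difference of 0.07 did not pass the test (exact permutation p = 0.719), nor did that of Wnt5a at 0.29 (exact permutation p = 0.259). The markers themselves differed widely in log2 fold change, with Kdr at -1.70, Egfl7 at -0.66, Tie1 at -0.35, Cdh5 at -0.21, Pecam1 at -0.16 and Emcn at -0.04. Fzd4 (-0.51) fell more than Tie1, Cdh5, Pecam1 and Emcn and less than Kdr and Egfl7. Wif1 was lower by 3.61 relative to these markers, with 8 of the 9 IZ libraries below all sham libraries. Whether fibroblasts or vessels are the source of any of these transcripts was not tested.

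**Figure D4:**
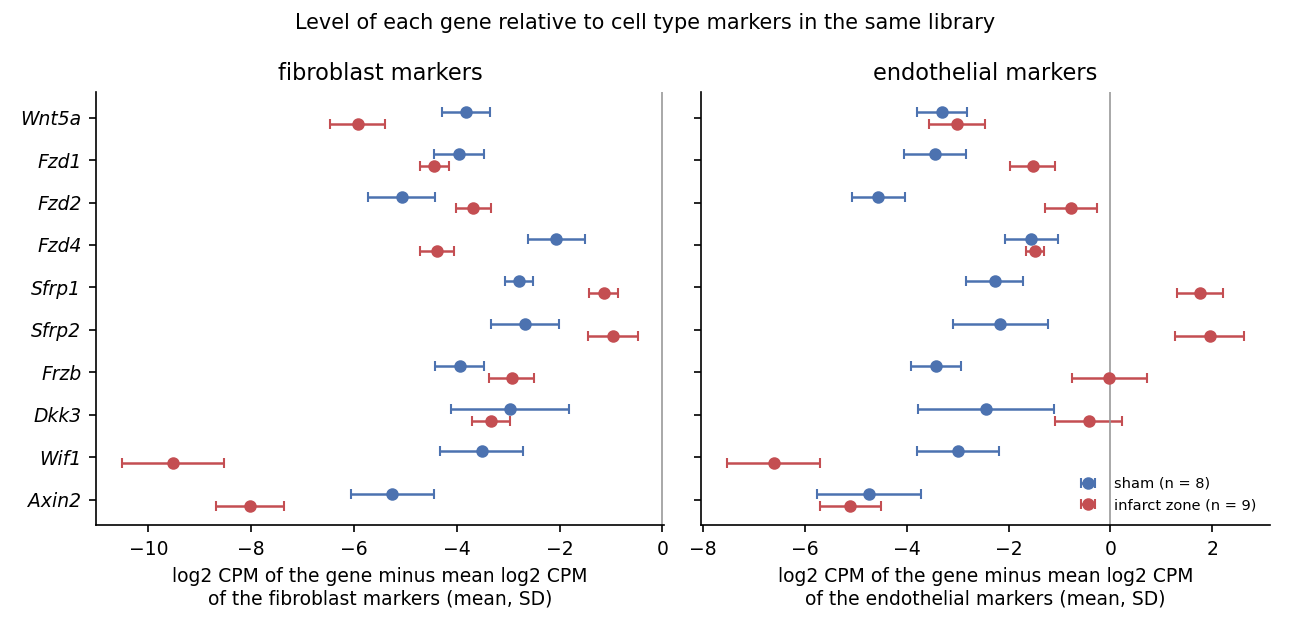
Log2 CPM of each gene minus the mean log2 CPM of 7 fibroblast markers (left) or 6 endothelial markers (right) in the same library, as mean and SD over 8 sham (blue) and 9 IZ (red) libraries. Sfrp1, Sfrp2, Frzb and Fzd2 lie to the right of sham in both panels, Wif1 to the left in both, and Fzd4 lies within the sham SD against the endothelial markers and to the left of sham against the fibroblast markers.

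Within the 9 IZ libraries, each gene was compared with the fibroblast and the cardiomyocyte marker level, which makes 20 relations tested by exact permutation of the pairings. Frzb followed the fibroblast level (Pearson r = 0.85, permutation p = 6.72e-04, adjusted 0.0134, Spearman rho = 0.88, permutation p = 0.00308, adjusted 0.0607). Without replicates 5 and 6, the libraries farthest from the median, r was 0.76 (permutation p = 0.0294). Dkk3 had r = 0.80 (permutation p = 0.00870) and rho = 0.85 (permutation p = 0.00607) with the fibroblast level, which did not pass adjustment (0.0643 and 0.0607), and r = 0.62 without the same 2 libraries (permutation p = 0.134). The relation of Frzb is lost with the summed marker CPM as the level and with total counts alone, where 0 of the 20 passed.

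Fzd4 did not pass adjustment with the cardiomyocyte level (Pearson r = 0.86, permutation p = 0.0432, adjusted 0.216, rho = 0.48, permutation p = 0.194), and without replicates 1 and 4 r was -0.27 (permutation p = 0.541), so that the relation rests on those libraries. Nor did Sfrp2 (r = 0.70, permutation p = 0.00965, adjusted 0.0643, rho = 0.80, permutation p = 0.0138, adjusted 0.0922), with r = 0.72 without replicates 1 and 4 (permutation p = 0.0829).

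Across all 17 libraries, after the mean of each group was taken out, the gene whose log2 level was most like that of Sfrp1 among 9315 genes that averaged 10 CPM or more was Sfrp2, and the reverse also held (Pearson r = 0.85, a description across libraries that share one scaling). Fzd2 was most like Tgfb2, which encodes a transforming growth factor beta ligand (r = 0.85). For the other genes the most similar were Immp1l for Wif1 (r = 0.83), Tmem106c for Dkk3 (r = 0.82), Gmppb for Fzd1 (r = 0.82), Bnip1 for Fzd4 (r = 0.80), Zc3h14 for Axin2 (r = 0.79), Prpf31 for Wnt5a (r = 0.78) and Pald1 for Frzb (r = 0.78). With this many candidates over 17 libraries such values carry no test.

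The rest of the pathway was taken from lists of 92 other genes, of which 88 have a row in the table and 50 were tested. Of these, 18 were called higher, 9 lower and 23 neither, with a median log2 fold change of -0.03 where all tested genes had 0.05. With total counts alone 43 were called higher and 3 lower. For comparison, 36.3% of all tested genes were called higher and 33.1% lower.

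**Figure D5:**
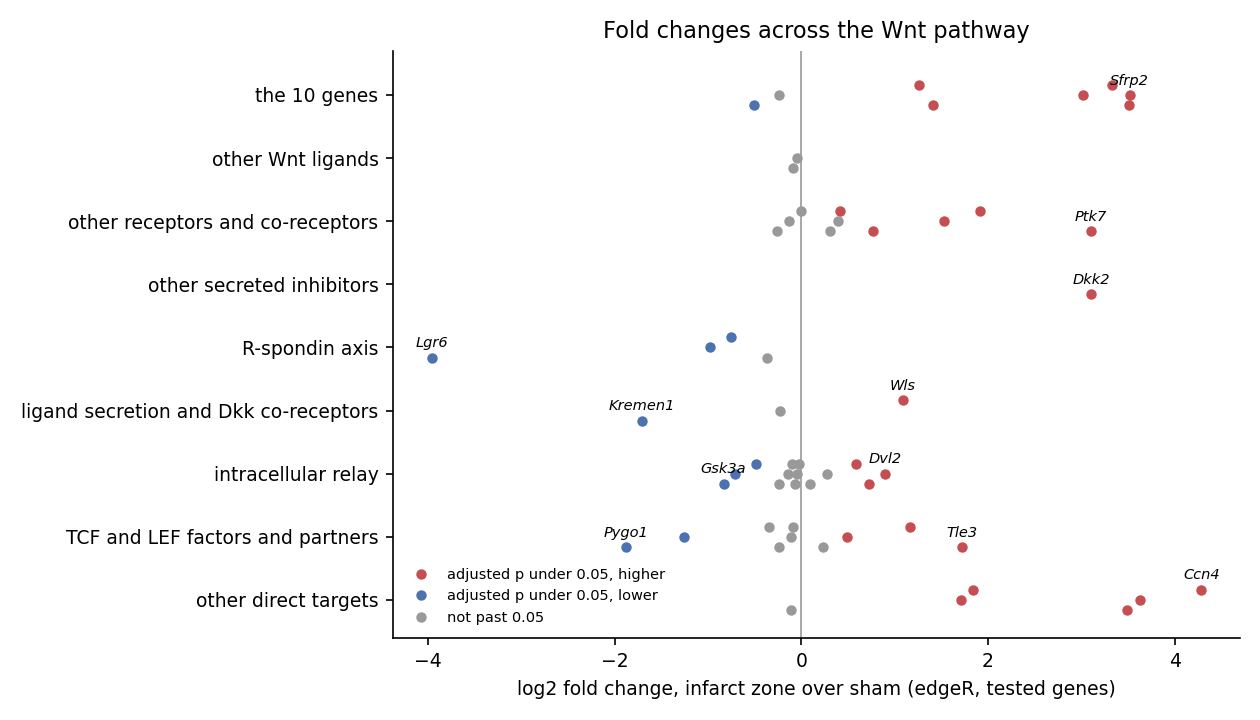
Log2 fold change, IZ over sham (x axis), of every tested gene in the 9 lists (rows), coloured by the call of edgeR at an adjusted p of 0.05 (red higher, blue lower, grey neither). Receptors and direct targets reach to the right, the R-spondin axis lies to the left of 0, and the intracellular relay stays near 0.

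Among the other ligands, 2 of 17 with a row were tested and neither was called, namely Wnt9a at -0.09 and Wnt11 at -0.04. The others had too few counts, and 8 of them had at most 3 counts in every library. Of all genes 20.9% were called higher and 17.6% lower when the filter was left out. Without the filter 1 of 17 was called higher, Wnt4 (3.29, adjusted p = 2.14e-04, edgeR), and 3 lower, Wnt2b (-2.03, adjusted p = 0.0174, edgeR), Wnt5b (-1.02, adjusted p = 0.0341, edgeR) and Wnt9b (-2.10, adjusted p = 0.0432, edgeR), and these were named after their values were seen. Wls, which carries Wnt proteins to the cell surface, had 32.0 to 65.7 CPM in sham and 84.0 to 134 CPM in the IZ without overlap, and rose by 1.09 (SE 0.13, adjusted p = 1.05e-07, edgeR).

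Of 10 other receptors and co-receptors tested, 5 rose and none fell, where 36.3% of all tested genes were called higher and 33.1% lower. Ptk7, a pseudokinase co-receptor of planar polarity signals, rose the most among them, from 0.67, 1.94 and 2.91 CPM in sham to 7.18, 15.8 and 23.1 CPM in the IZ (log2 fold change 3.11, SE 0.28, adjusted p = 1.17e-09, edgeR). Its sham levels were too low for the filter, so Ptk7 was tested only through its IZ counts. The other 4 were Ror2 (1.91), Fzd5 (1.52), Ror1 (0.77) and Ryk (0.41), of which Ror1, Ror2 and Ryk are receptors of the non-canonical branches. The co-receptors of the canonical branch, Lrp5 at 0.00 and Lrp6 at -0.13 on the log2 scale, did not pass the test (adjusted p = 0.998 and 0.363, edgeR). These values hold for TMM scaling, and total counts alone moved the median of all tested genes from 0.05 to 1.13. Without the filter on low counts, 5 of 12 other receptors and co-receptors were called higher and 1 lower. Of all genes 20.9% were then called higher and 17.6% lower.

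Of the other secreted inhibitors only Dkk2, which binds the Lrp co-receptors, had enough counts. Without the filter on low counts, 1 of 8 was called higher and 2 lower, where 20.9% of all genes were called higher and 17.6% lower. Dkk2 went from 0 to 2.91 CPM in sham to 2.15 to 19.3 CPM in the IZ and rose by 3.11 on the log2 scale (SE 0.53, adjusted p = 1.80e-05, edgeR). It passed the filter only through the IZ, its sham libraries holding at most 4 counts each. Its place among the tested genes is therefore no support for the rise. Without the filter the log2 fold change was 3.17 (adjusted p = 3.65e-07, edgeR). IZ replicate 2 was the highest and also had the highest summed CPM of mesothelial markers. Dkk2 passed the filter in 9 of the 17 fits that left out 1 library, and without IZ replicate 2 it could be fitted only without the filter (2.91, adjusted p = 1.24e-06, edgeR). Kremen1, a receptor that acts together with Dickkopf proteins, fell from 80.1 to 117 CPM in sham to 19.7 to 42.0 CPM in the IZ, without overlap (-1.71, SE 0.13, adjusted p = 1.13e-10, edgeR).

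In the R-spondin axis, which enhances Wnt signals by protecting Frizzled receptors from degradation, 3 of 4 tested genes fell and none rose. Of all tested genes 33.1% were called lower and 36.3% higher. Lgr6, an R-spondin receptor, had 33.6, 52.9 and 72.9 CPM in the lowest, median and highest sham library and 1.02, 2.76 and 12.2 CPM in the IZ (-3.96, SE 0.30, adjusted p = 7.54e-11, edgeR), with IZ replicate 1 the highest. Lgr4 was lower at -0.97, and Znrf3, the ubiquitin ligase that removes Frizzled receptors, at -0.75 (adjusted p = 0.0229, edgeR). Without the filter on low counts 2 of 7 were called lower and 1 higher, since Znrf3 was then not called (-0.69, adjusted p = 0.0684, edgeR) and Rspo1 was tested and called higher (2.27, adjusted p = 0.00230, edgeR). Of all genes 17.6% were then called lower and 20.9% higher.

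Inside the cell, of 14 tested relay genes 3 rose, 3 fell and 8 were not called, from Gsk3a at -0.83 (SE 0.13, adjusted p = 5.23e-06, edgeR) to Dvl2 at 0.90 (SE 0.23, adjusted p = 0.00114, edgeR), and Ctnnb1, which encodes β-catenin, had a log2 fold change of -0.02 (SE 0.09, adjusted p = 0.831, edgeR). With total counts alone Gsk3a turned to 0.21 (adjusted p = 0.127, edgeR). Among 10 tested TCF and LEF factors and partners, 3 rose and 2 fell. Beside both lists, 36.3% of all tested genes were called higher and 33.1% lower. Tle3, a corepressor, rose by 1.72 (SE 0.17, adjusted p = 6.58e-09, edgeR), and Pygo1, a coactivator, fell by 1.88 (SE 0.26, adjusted p = 6.97e-07, edgeR).

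Of 6 other direct targets of the pathway tested, 5 rose, none fell and Ccnd1 was not called (-0.11). Of all tested genes 36.3% were called higher. Axin2, the target among the 10 genes, was called lower without the filter, close to the threshold (-1.14, adjusted p = 0.0376, edgeR). Nkd1, Sp5, Apcdd1 and Tnfrsf19 had too few counts, and without the filter 5 of 10 targets were called higher and none lower. Of all genes 20.9% were then called higher and 17.6% lower. Ccn4, a matricellular protein, had 1.54, 5.67 and 10.5 CPM in the lowest, median and highest sham library and 66.8, 113 and 163 CPM in the IZ (log2 fold change 4.29, SE 0.25, adjusted p = 1.80e-12, edgeR). The others were Ccn5 (3.63), Nkd2 (3.49), Twist1 (1.84) and Myc (1.72). Other signals also induce these genes, and the activated fibroblast markers rose in the same libraries, a shift whose part in these values was not tested.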

How the data were processed

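RNA of 17 hearts was measured, 8 sham LV and 9 IZ, grouped by the labels. The authors trimmed MACE reads with Cutadapt, mapped them to mm10 and deposited raw counts per gene made with HTSeq, without normalization, and the submitters' processing notes name Bowtie2. Identifiers served to remove PCR duplicates, per the labels. Total counts ran from 1237675 to 4738307, and intervals cover counting error at the 95% level only. Of 31647 features, 31521 matched GENCODE M21, 35 were merged overlapping genes that were kept without a name, and Wnt8b, Cer1, Rspo2 and Rspo4 were not analysed here.

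Counts were tested with edgeR 4.0.16 (R 4.3.3), with filterByExpr at its minimum of 10 counts, TMM scaling (factors 0.616 to 1.53), two-sided quasi-likelihood F-test and Benjamini-Hochberg adjustment at 0.05. Standard errors were derived from the F statistic. DESeq2 1.42.0 (Wald test), other scalings and filters, removal of mitochondrially encoded features, the replicate block and leaving out each library were alternatives. Leaving out IZ replicates 1 and 2 together, the fits of Wif1, Axin2 and Dkk2 without a filter under other settings, and the levels relative to activated fibroblast markers were added after seeing the data. Ratios, marker differences and relations were tested by exact two-sided permutation with SciPy 1.17.1, and 3′ ends were compared with BLAST 2.17.0. The fit was tested on simulated data.

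The 10 genes are all reported. From each wider list the genes named with full statistics are the called ones with the highest and the lowest log2 fold change, and other genes were named after their values were seen. The genes and lists were chosen with earlier results of these data known. The labels give no batch, and nothing beyond separate samples says how far the replicates were handled apart, so p-values measure the spread between these samples.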

Additional observations from a re-analysis of the deposited data

Results flagged for a closer look

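In 40 groups of libraries (20 genes in sham and IZ), 4 values stood apart from the rest of their group by Dixon's ratio of the gap to the range. The ratio was taken on log2 CPM, and by this rule chance alone picks about 1 in 20. Wif1 was lowest in sham replicate 3 (ratio 0.563), with 4 counts or 3.14 CPM where the next sham library had 8.80 CPM. Fzd4 was highest in IZ replicate 1 (ratio 0.666), at 29.4 CPM where the next IZ library had 20.9 CPM. Lgr6 was also highest in IZ replicate 1 (ratio 0.514), at 12.2 CPM and 34 counts against 3.68 CPM in the next. Ptk7 was lowest there (ratio 0.513), at 7.18 CPM and 20 counts against 13.1 CPM. IZ replicate 1 is the library with the most cardiomyocyte marker RNA and mitochondrially encoded counts in the IZ, and the part of that in these 3 values was not tested. Without it, the log2 fold changes were -0.62 for Fzd4, -4.46 for Lgr6 and 3.16 for Ptk7.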

How the results depend on the processing

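The calls of Sfrp1, Sfrp2, Frzb, Dkk3 and Fzd2 as higher held in the 26 alternatives tried for each, that of Fzd1 in 25 (it did not pass the minimum mean of 50 counts) and that of Wif1 as lower in 23. The other changes were as follows, and their cause was not tested beyond the filters and scalings that define them. With total counts alone 0 of the 8 genes that pass the filter were called lower (Wif1, fitted without a filter, stayed lower at -3.92, adjusted p = 3.27e-10, edgeR), Wnt5a turned to 0.85 and was called higher (adjusted p = 0.00282, edgeR), Fzd4 turned to 0.54, Gsk3a turned to 0.21, and 43 wider genes were called higher and 3 lower instead of 18 and 9. Without a filter and with DESeq2 alike, 3 of the 10 genes and 14 wider genes were called lower. With a minimum mean of 50 counts, 8 wider genes were higher and 5 lower. With IZ replicates 1 and 2 both left out, 2 of the 10 were lower, since Wif1 then passed the filter. Leaving out 1 library at a time gave 1 to 2 lower calls (2 without sham replicate 3, again with Wif1). In the fit without a filter the call of Fzd4 was lost without sham replicate 1 (-0.36, adjusted p = 0.0834, edgeR), without sham replicate 8 (-0.33, adjusted p = 0.106, edgeR) and with the replicate block (-0.41, adjusted p = 0.0675, edgeR). Of the relations within the IZ, 0 passed with summed marker CPM and 0 with total counts alone. Replicate numbers do not pair animals, since sham and IZ libraries came from different mice. Same-numbered libraries correlated at -0.22 to 0.13, and 1 of 8 sham libraries correlated best with its own number. Whether same-numbered libraries were handled together was not tested. The replicate block left 6 higher and 1 lower call, with Fzd4 at -0.44 (adjusted p = 0.0187, edgeR), and ended the call of Axin2 (-0.92, adjusted p = 0.175, without a filter). Depth limits Axin2, Wif1 in the IZ, and Fzd2 in sham, which had 12 counts or fewer in each library there.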

Other observations

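Some Wnt genes with too few counts for the test differed between single IZ libraries, and were picked out after their values were seen. The ligand Wnt4 had at most 3 counts in a sham library, 77 in IZ replicate 2 and up to 59 in the other IZ libraries. Rspo1, an R-spondin, had at most 2 counts in sham, 74 in IZ replicate 2 and at most 16 in the other IZ libraries. The same library had the highest count of Dkk2 (140, where the other IZ libraries had at most 65), of the mesothelial markers Msln (316 against at most 73) and Upk3b (229 against at most 57), and of the adipocyte marker Adipoq (153 against at most 15). This library was also the deepest, and in CPM the gaps were smaller, with 10.2 against at most 5.91 in the other IZ libraries for Rspo1, 19.3 against 13.4 for Dkk2, 43.6 against 26.3 for Msln, 31.6 against 20.5 for Upk3b, 21.1 against 6.45 for Adipoq and 10.6 against 9.63 for Wnt4. The part of mesothelial or fat tissue in these values was not tested.

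Among the inhibitors with few counts, Sfrp5 was opposite to Sfrp1 and Sfrp2. Its counts ran from 1 to 12 over the sham libraries, and no IZ library had more than 1. The counts of the receptor Fzd9 reached 9 in both groups, with 6 of the 9 IZ libraries below all sham libraries by CPM. Wnt5b, a ligand related to Wnt5a, reached 19 counts in the sham libraries and 18 in the IZ, with 3 of the 9 IZ libraries below all sham libraries by CPM.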
